A study of Homo sapiens with 6 samples.

Results

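The genes described here are 38 cytosolic heat shock chaperones, co-chaperones and chaperonin subunits. They were taken as every row of the deposited table whose gene name is on a list of 38 symbols, and all 38 had a row among the 29435 rows. By role the list holds 18 chaperones and co-chaperones known to be induced by the heat shock factor HSF1, 5 constitutive genes of the HSP70 system, the heat shock factors HSF1 and HSF2, 8 subunits of the chaperonin TRiC and 5 subunits of prefoldin. The name cytosolic does not hold for HSPD1, HSPE1 and HSPA9, which encode chaperones of the mitochondrial matrix and are described with the rest. The rule uses names and no measured value, though the list was drawn up with earlier results of these data known.

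The cells were labelled HepG2, a human liver tumour line. They were given saikosaponin A, a triterpenoid saponin of Bupleurum roots, at 20 µM, or its vehicle DMSO, for 4 h, and polyadenylated RNA was sequenced. There were 3 libraries per group, called DMSO 1 to 3 and saikosaponin A 1 to 3, and no group received heat or another stressor. The labels do not say that the 3 libraries of a group came from separate cultures, so a p-value reflects the spread between libraries alone, which may be technical.

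In unstressed cells HSF1 is held inactive, in part by the chaperones it controls. When unfolded proteins occupy those chaperones, HSF1 forms trimers, binds heat shock elements and raises transcription of HSP70, HSP40, HSP90 co-chaperone and small heat shock protein genes. TRiC, also called CCT, is a ring-shaped chaperonin that folds actin, tubulin and WD-repeat proteins during or after translation. Prefoldin is a jellyfish-shaped holdase that passes nascent actin and tubulin to TRiC. The role groups are not a clean split of function or regulation. On the inducible list, HSPA8 also folds nascent proteins and HSP90AB1 is the constitutive HSP90 isoform.

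Library totals ran from 57768359 to 74912492 counts, and the test was run on the 11427 rows, all 38 members included, that reached 1 FPKM in 3 or more libraries. The mitochondrially encoded share of counts was 14.9% in DMSO 3 and 18.8% in saikosaponin A 1, against 6.19% to 8.28% in the other 4 libraries, so values are also given without these libraries. Of 19 hepatocyte markers 11 had a row, and 9 of those had a mean below 0.1 FPKM, among them APOA1, APOA2, FGA, FGB, FGG, TF and HNF4A. CPS1 was the only hepatocyte marker with a mean of at least 1 FPKM, and with it the hepatocyte list summed to 140.3 to 177 FPKM with DMSO and 136 to 156 FPKM with saikosaponin A, the highest sum of the 5 lists. Of 9 fibroblast and stellate cell markers 8 had a row. FAP, COL1A1, PDGFRB and COL3A1 were each at or above a mean of 1 FPKM, while DCN, PDGFRA and THY1 had means below 0.1 FPKM. The summed fibroblast markers spanned 35.5 to 46.9 FPKM with DMSO and 30.0 to 36.7 FPKM with saikosaponin A. KRT17 was the only one of 3 epithelial markers at 1 FPKM or more, and that list summed to 11.9 to 16.1 FPKM with DMSO and 20.2 to 27.9 FPKM with saikosaponin A. Of 4 endothelial markers with a row none reached a mean of 1 FPKM, and of 2 leukocyte markers CD68 alone did. Since 9 of the 11 hepatocyte markers were near 0, HepG2 is used only as the label. In these bulk samples, fewer cells of a type and less RNA per cell cannot be told apart. The part of these marker levels in the chaperone values was not tested.

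A heat shock element is an array of alternating inverted GAA units, and sites from the promoters of some of the genes are shown first. The search was for 3 units in a row with any 2 bases (NN) between neighbours, that is GAA, TTC and GAA, or TTC, GAA and TTC. These are each other's reverse complement, so the search covers both strands, and matches that overlap in a longer array were joined. It ran over the 250 bases before each RefSeq transcript start (build GRCh38.p14). The sites lie at chr6:31815429-31815457 for HSPA1A, chr6:31827625-31827653 for HSPA1B, chr11:123062171-123062199 for HSPA8, chr11:90223084-90223112 for CHORDC1, chr14:102087112-102087140 for HSP90AA1, chr6:44247823-44247851 for HSP90AB1, chr2:197500062-197500090 for HSPD1 and chr6:33289542-33289570 for PFDN6. HSPA8, CHORDC1, HSP90AA1 and HSPD1 are transcribed from the minus strand and the others from the plus strand. Each is printed 5′ to 3′ on the strand of its gene, with the element in capitals.
HSPA8: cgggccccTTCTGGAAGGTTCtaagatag
CHORDC1: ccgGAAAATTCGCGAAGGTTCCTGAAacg
HSP90AA1: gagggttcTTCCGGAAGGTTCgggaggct
HSP90AB1: tgagattgTTCTGGAAGCTTCtggattct
HSPD1: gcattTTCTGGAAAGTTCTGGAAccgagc
HSPA1A: aaaccctgGAATATTCCCGACctggcagc
HSPA1B: aacccctgGAATATTCCCGACctggcagc
PFDN6: gtcagaaaGAAACTTCCGGCAcagtcttt
The first 5 hold every fixed base of the element, and HSPA1A, HSPA1B and PFDN6 differ from it at 1 of 9 fixed bases. CHORDC1 carries the longest array, 23 bases of overlapping matches that end 38 bases before the start. HSPA8 has another exact site farther from its start, at chr11:123062346-123062374, and HSP90AB1 has another at chr6:44247770-44247798.

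Of the 34 members with a promoter in the RefSeq table, 6 held an exact 3-unit element (17.6%), against 152 of 27305 genes in all (0.557%). The 6 were CHORDC1, HSP90AA1, HSP90AB1, HSPA8 and HSPD1, which are 5 of the 17 inducible members with a promoter, and DNAJB6 of the constitutive genes. Only the CHORDC1 site lies outside the deposited span of its gene. By the deposited coordinates the HSPD1 site also lies before the HSPE1 start (chr2:197500140). The HSPE1 window searched (chr2:197500129-197500428) did not cover it. That HSPD1 is counted with the element and HSPE1 without it thus depends on the starts used. None of 7 TRiC promoters and none of 4 prefoldin promoters held one. At the 0.557% of all genes so few promoters would mostly hold none, so this does not set them apart from other genes. With 1 of the 9 fixed bases allowed to differ, 12 of 17 inducible members had an element (70.6%), against 6.54% of all genes. Among the chaperonin genes only PFDN6 did, and at 6.54% their promoters are again too few to be told from all genes. FKBP4, PFDN2, CCT6A and HSF1 were not searched. A match is a description of the letters in the window, and no binding was measured here.

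Most of the 38 genes were higher in the saikosaponin A libraries. In edgeR's quasi-likelihood test with Benjamini-Hochberg adjustment over all 11427 genes, 29 of 38 rose, 1 fell (HSPA4L) and 8 did not pass an adjusted p of 0.05. Of all tested genes 25.9% rose and 27.9% fell. The median log2 fold change was 0.44 over the 38 genes and 0.03 over all genes. The libraries did not overlap in 32 members, 31 of them higher with saikosaponin A, while 62.8% of all tested genes did not overlap and 30.4% did so with higher values under saikosaponin A. The members took 1.51%, 1.52% and 1.32% of all counts in DMSO 1, 2 and 3 and 1.62%, 1.94% and 1.94% in saikosaponin A 1, 2 and 3.

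On counts with no length correction, the groups differed in how evenly they moved. Of the inducible genes 14 of 18 rose with a median of 0.51 and a span from -0.34 to 0.99 on the log2 scale. All 8 TRiC subunits rose, within 0.35 to 0.55 and with a median of 0.44. With the length offset given further on they spanned 0.10 to 0.57, and 2 of the 8 passed the threshold. TCP1 alone turned negative in any fit (TPM, -0.02). All 5 prefoldin subunits rose, with a median of 0.89 and a span of 0.35 to 0.98, though PFDN1 and PFDN2 turned negative under corrections for transcript length (PFDN2 not under the spline) and PFDN1 with TPM. Of the constitutive HSP70 genes 2 of 5 rose with a median of 0.28, and neither heat shock factor passed the test. No difference between these groups was tested, since the genes of a list are not replicates.

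**Figure D1:**
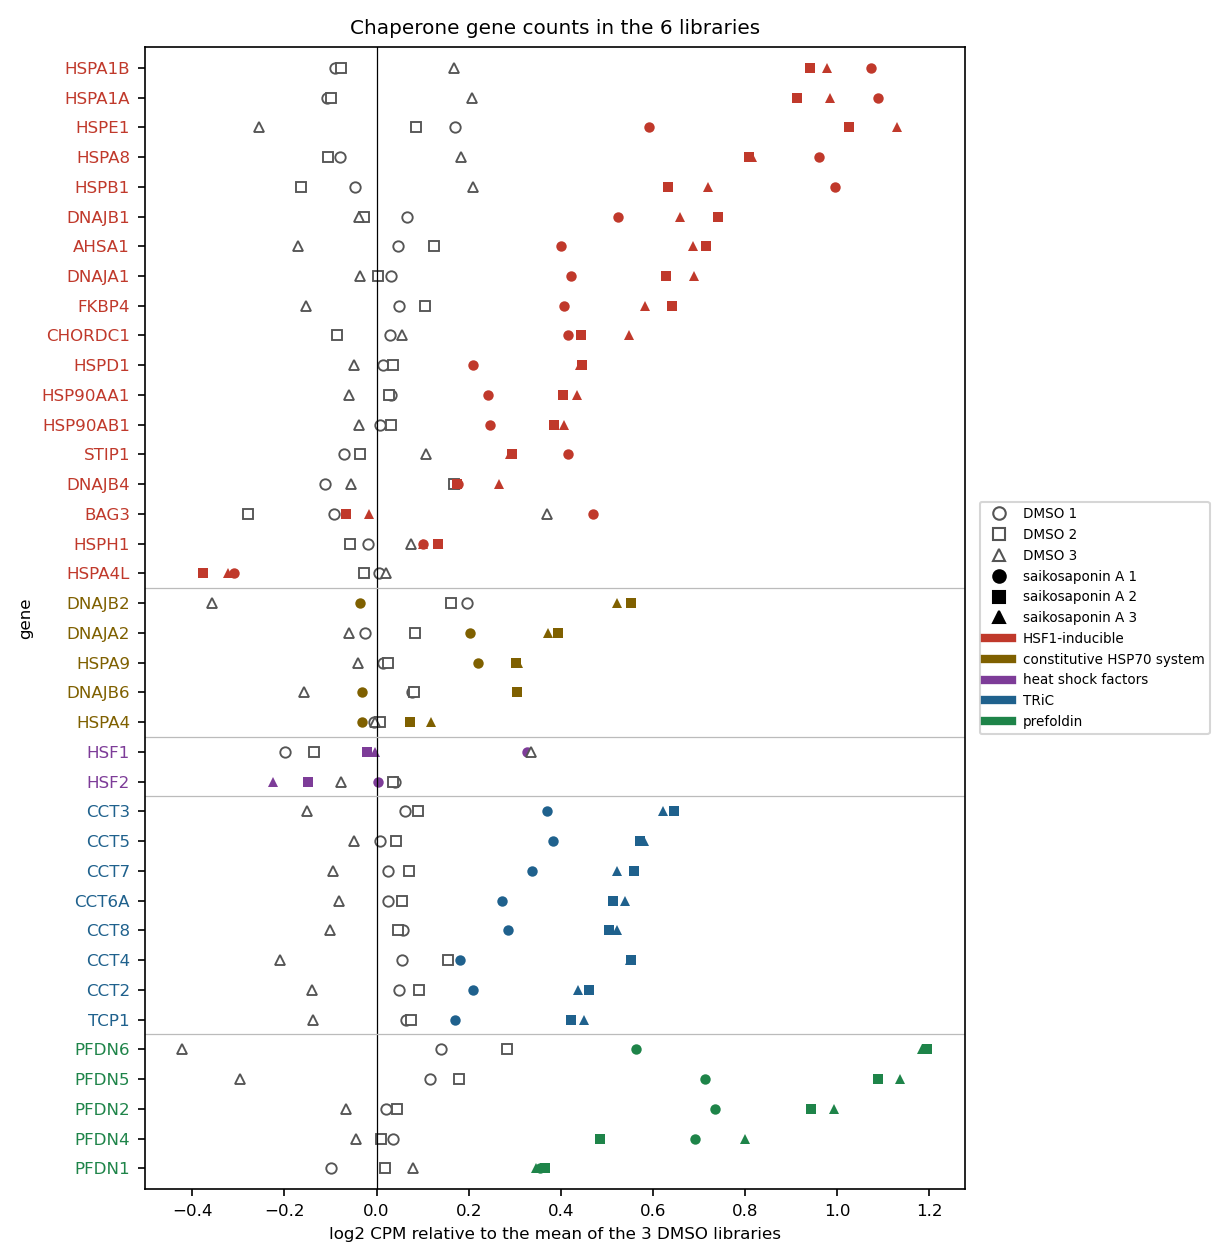
Each row is one of the 38 genes, and the horizontal axis is its log2 CPM (TMM-scaled) relative to the mean of its 3 DMSO libraries, with DMSO libraries as open symbols and saikosaponin A libraries as filled ones coloured by role group. The saikosaponin A symbols lie right of all DMSO symbols in 31 rows and left of them in the HSPA4L row, and saikosaponin A 1 (circle) is the lowest treated library in all 8 TRiC rows.

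HSPA1A and HSPA1B encode the stress-inducible HSP70 and are the textbook readout of HSF1 activity. The copies are near-identical and neighbouring (HSPA1A, ENSG00000204389, chr6:31815543-31817946, and HSPA1B, ENSG00000204388, chr6:31827738-31830254, both on the plus strand), so the split of reads between them is uncertain. Values are CPM, which scale a gene's count by the TMM-adjusted size of its library. HSPA1A stood at 191, 192 and 237 CPM in DMSO 1, 2 and 3 and at 437, 387 and 406 CPM in saikosaponin A 1, 2 and 3. HSPA1B stood at 163, 165 and 196 CPM with DMSO and at 366, 334 and 343 CPM with saikosaponin A. In both genes the lowest treated library was well above the highest DMSO library. HSPA1A rose by a log2 fold change of 0.99 (SE 0.10, adjusted p = 0.000423, edgeR) and HSPA1B by 0.99 (SE 0.09, adjusted p = 0.000243, edgeR), the largest changes of the inducible group. Summed over both copies, the level was 354, 357 and 433 CPM with DMSO and 804, 721 and 749 CPM with saikosaponin A. The log2 ratio of HSPA1A to HSPA1B was 0.21 to 0.28 in all 6 libraries.

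HSPA8 encodes HSC70, the abundant cognate HSP70 that folds nascent proteins and is moderately heat-inducible. It stood at 1139, 1119 and 1367 CPM with DMSO and at 2342, 2108 and 2118 CPM with saikosaponin A, and the groups did not overlap. The log2 fold change was 0.86 (SE 0.11, adjusted p = 0.000801, edgeR). On the per-length FPKM scale HSPA8 was 1.59 to 1.63 times the sum of HSPA1A and HSPA1B in the DMSO libraries and 1.43 to 1.48 times in the saikosaponin A libraries. The inducible HSP70 copies thus gained slightly more than the cognate gene on that scale, a difference that was not tested.

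The J-domain proteins hand substrates to HSP70 and trigger its ATPase. DNAJB1, the HSF1-inducible HSP40, stood at 137, 129 and 128 CPM with DMSO and at 189, 219 and 207 CPM with saikosaponin A, a log2 fold change of 0.64 (SE 0.07, adjusted p = 0.000611, edgeR). DNAJA1, a farnesylated HSP40, stood at 318, 312 and 303 CPM against 417, 481 and 501 CPM, with a log2 fold change of 0.58 (adjusted p = 0.00136, edgeR). Neither gene's groups overlapped. DNAJB4, a close relative of DNAJB1, did not pass the test, at 43.5, 52.9 and 45.3 CPM with DMSO and 53.2, 53.1 and 56.6 CPM with saikosaponin A (adjusted p = 0.0943, edgeR).

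Nucleotide exchange factors release substrates from HSP70. With all 6 libraries and no length correction, none of those on the inducible list rose. BAG3, which links HSP70 to the small heat shock proteins and to selective autophagy, stood at 72.1, 63.3 and 99.3 CPM with DMSO and at 106, 73.4 and 76.0 CPM with saikosaponin A. Its highest DMSO and its highest treated value came from the libraries with high mitochondrial shares, DMSO 3 and saikosaponin A 1. The groups overlapped and the log2 fold change was 0.12 (SE 0.20, adjusted p = 0.626, edgeR). The 4 other libraries gave BAG3 0.11 (adjusted p = 0.151, edgeR). HSPH1, the HSP110 family member HSP105, stood at 167, 162 and 178 CPM against 181, 185 and 181 CPM, with a log2 fold change of 0.11 (SE 0.06, adjusted p = 0.151, edgeR). Without DMSO 3 and saikosaponin A 1 its adjusted p was 0.0217 at a log2 fold change of 0.13. HSPA4L, a further HSP110 family member, was the only member that fell: 119, 117 and 121 CPM with DMSO and 96.1, 91.6 and 95.1 CPM with saikosaponin A, a log2 fold change of -0.34 (SE 0.05, adjusted p = 0.00244, edgeR). HSPA4L also has the longest transcript of the 38 genes, and its sign depended on the treatment of length given further on. With the length offset HSPH1 was at 0.39 (adjusted p = 0.00256, edgeR) and HSPA4L at 0.40 (adjusted p = 0.00417, edgeR), both higher and past the threshold. BAG3 was at -0.04 with that offset (adjusted p = 0.9, edgeR).

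HSP90 and its co-chaperones mature kinases and steroid receptors. The inducible HSP90AA1 stood at 1853, 1847 and 1739 CPM with DMSO and at 2143, 2401 and 2451 CPM with saikosaponin A, a log2 fold change of 0.36 (SE 0.09, adjusted p = 0.0119, edgeR). The constitutive HSP90AB1 stood at 2253, 2291 and 2184 CPM against 2660.3, 2929.7 and 2971 CPM, a log2 fold change of 0.35 (SE 0.08, adjusted p = 0.0125, edgeR). In both genes every treated library was above every DMSO library. The log2 ratio of the inducible to the constitutive isoform was -0.28, -0.31 and -0.33 with DMSO and -0.31, -0.29 and -0.28 with saikosaponin A, overlapping ranges. HSP90AB1 had the highest DMSO level per length of all 38 genes, 685 ± 73.1 FPKM (SD, n = 3), and HSP90AA1 stood at 324 ± 38.2 FPKM (SD, n = 3).

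The HSP90 co-chaperones on the list all rose on counts with no length correction. AHSA1, the activator of the HSP90 ATPase, stood at 138, 146 and 119 CPM with DMSO and at 177, 219.9 and 216 CPM with saikosaponin A (log2 fold change 0.60, adjusted p = 0.00418, edgeR). FKBP4, the immunophilin of steroid receptor complexes, stood at 362, 377 and 315 CPM against 464, 547 and 525 CPM (log2 fold change 0.54, adjusted p = 0.00335, edgeR). CHORDC1, a CHORD-domain HSP90 partner and the gene with the longest element array, stood at 69.6, 64.3 and 70.9 CPM against 91.1, 92.7 and 99.7 CPM (log2 fold change 0.47, adjusted p = 0.00159, edgeR). In these 3 genes every treated library was above every DMSO library. STIP1, the HOP protein that bridges HSP70 and HSP90, stood at 312, 319.6 and 353 CPM against 437, 402 and 400.2 CPM (log2 fold change 0.33, adjusted p = 0.00895, edgeR). With the length offset given further on, FKBP4 and CHORDC1 still passed the threshold. STIP1 at 0.21 (adjusted p = 0.0865, edgeR) and AHSA1 at 0.06 (adjusted p = 0.626, edgeR) did not.

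The small heat shock protein HSPB1, an ATP-independent holdase, stood at 196, 180.4 and 234 CPM with DMSO and at 403, 313 and 333 CPM with saikosaponin A. The groups did not overlap and the log2 fold change was 0.78 (SE 0.13, adjusted p = 0.0026, edgeR). Of the mitochondrial chaperonin pair, HSPD1 (HSP60) stood at 872, 886 and 835 CPM against 999.6, 1177 and 1174 CPM, a log2 fold change of 0.37 (SE 0.09, adjusted p = 0.0109, edgeR). Its co-chaperonin HSPE1 (HSP10) stood at 127, 120.1 and 94.9 CPM against 171, 230.3 and 248 CPM, a log2 fold change of 0.92 (SE 0.16, adjusted p = 0.0035, edgeR). The pair is transcribed divergently from overlapping 5′ ends on chromosome 2 (HSPD1 at chr2:197486584-197500274 on the minus strand, HSPE1 at chr2:197500140-197503382 on the plus strand). The log2 ratio of HSPE1 to HSPD1 counts was -2.77, -2.88 and -3.14 with DMSO and -2.55, -2.35 and -2.24 with saikosaponin A, without overlap. HSPE1 has the shorter transcript, and its place above HSPD1 depended on the treatment of length given further on. With the offset for the longest transcript HSPE1 was at 0.13 and HSPD1 at 0.17, neither past the threshold. A spline for that length put HSPE1 at 0.24 and HSPD1 at 0.15, again neither past it. With the length implied by the deposited values HSPE1 was at 0.41 (adjusted p = 0.0429, edgeR) and HSPD1 at 0.29 (adjusted p = 0.0305, edgeR). HSPE1 shares its strand with the read-through gene HSPE1-MOB4, so its reads may be divided between them, and 7 HSPD1 pseudogene rows held counts equal to 1.49% to 1.79% of the HSPD1 count in each library.

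Of the constitutive HSP70 system genes, HSPA9 (mortalin, the mitochondrial HSP70) stood at 546, 549.8 and 525 CPM with DMSO and at 629, 666 and 668 CPM with saikosaponin A (log2 fold change 0.28, adjusted p = 0.00926, edgeR). DNAJA2, a constitutive HSP40, stood at 83.5, 90.0 and 81.5 CPM against 97.8, 112 and 110.0 CPM (log2 fold change 0.32, adjusted p = 0.0106, edgeR). These were the only constitutive genes without overlap. HSPA4, the constitutive HSP110 family member, stood at 261, 264 and 262 CPM against 257, 276 and 285 CPM (adjusted p = 0.48, edgeR). DNAJB2 and DNAJB6 had log2 fold changes of 0.35 (SE 0.20) and 0.20 (SE 0.11) with adjusted p-values of 0.185 and 0.182 (edgeR). In both, saikosaponin A 1 lay inside the DMSO range. Without DMSO 3 and saikosaponin A 1, 4 of the 5 constitutive genes passed the test, with DNAJB2 at 0.33 (adjusted p = 0.00466, edgeR) and DNAJB6 at 0.20 (adjusted p = 0.00456, edgeR), where 33.3% of all genes rose. Without saikosaponin A 1 alone the number was also 4 of 5, where 27.6% of all genes rose, and with the mitochondrial share as a covariate it was 4 of 5, where 36.2% did.

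The transcripts of the factors themselves did not pass the test. HSF1, the master regulator, stood at 63.7, 66.5 and 92.3 CPM with DMSO and at 91.7, 72.1 and 72.9 CPM with saikosaponin A (log2 fold change 0.09, SE 0.16, adjusted p = 0.666, edgeR). HSF2, which forms mixed trimers with HSF1, stood at 30.5, 30.4 and 28.1 CPM against 29.7, 26.8 and 25.4 CPM (log2 fold change -0.12, SE 0.09, adjusted p = 0.26, edgeR). As with BAG3, the highest HSF1 value of each group came from a library with a high mitochondrial share. With the 4 other libraries HSF1 was at 0.13 (adjusted p = 0.0408, edgeR) and HSF2 at -0.25 (adjusted p = 0.0122, edgeR). HSF1 activity is set mainly after translation, and the transcript level does not measure it.

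The TRiC subunits rose together and, on counts with no length correction, within a narrow range. Each of the 8 ring positions is filled by a different subunit, encoded by TCP1, CCT2, CCT3, CCT4, CCT5, CCT6A, CCT7 and CCT8. CCT3 stood at 746, 761 and 643 CPM with DMSO and at 923, 1119 and 1100.1 CPM with saikosaponin A, a log2 fold change of 0.55 (SE 0.11, adjusted p = 0.00499, edgeR), the largest of the set. CCT5 stood at 924, 947 and 889 CPM against 1199.7, 1367 and 1375 CPM, a log2 fold change of 0.51 (SE 0.08, adjusted p = 0.00224, edgeR). TCP1, the founding subunit, had the smallest change: 314, 316 and 273 CPM against 338, 402 and 410.2 CPM, a log2 fold change of 0.35 (SE 0.10, adjusted p = 0.022, edgeR). The other 5 lay between these, CCT7 at 0.47, CCT6A at 0.45, CCT8 at 0.44, CCT4 at 0.43 and CCT2 at 0.37, with adjusted p-values from 0.00335 to 0.0304 (edgeR).

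In all 8 TRiC genes DMSO 3 was the lowest DMSO library and saikosaponin A 1 the lowest treated one, and these are the libraries with high mitochondrial shares. The mean log2 CPM of the 8 genes relative to the DMSO mean was 0.04, 0.08 and -0.12 in DMSO 1, 2 and 3 and 0.28, 0.53 and 0.53 in saikosaponin A 1, 2 and 3. The mean of the 18 inducible genes was more even, at -0.01, -0.02 and 0.03 with DMSO and 0.47, 0.49 and 0.52 with saikosaponin A. That mean joins genes that moved in opposite ways in DMSO 3 and saikosaponin A 1. In these libraries HSPA8 was the highest of its group, at 1367 and 2342 CPM, and HSPE1 the lowest, at 94.9 and 171 CPM. Prefoldin lay at 0.04, 0.11 and -0.15 and at 0.61, 0.82 and 0.89. Set against each other, saikosaponin A 1 and DMSO 3 gave log2 ratios of 0.31 to 0.52 for the 8 TRiC genes, and the 4 other libraries gave 0.37 to 0.56. Leaving out saikosaponin A 2, or saikosaponin A 3, left 5 of 8 TRiC subunits past the threshold in edgeR, where 17.5% and 17.7% of all genes rose. Without both DMSO 3 and saikosaponin A 1, all 8 TRiC and all 5 prefoldin subunits rose, where 33.3% of all genes did.

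**Figure D2:**
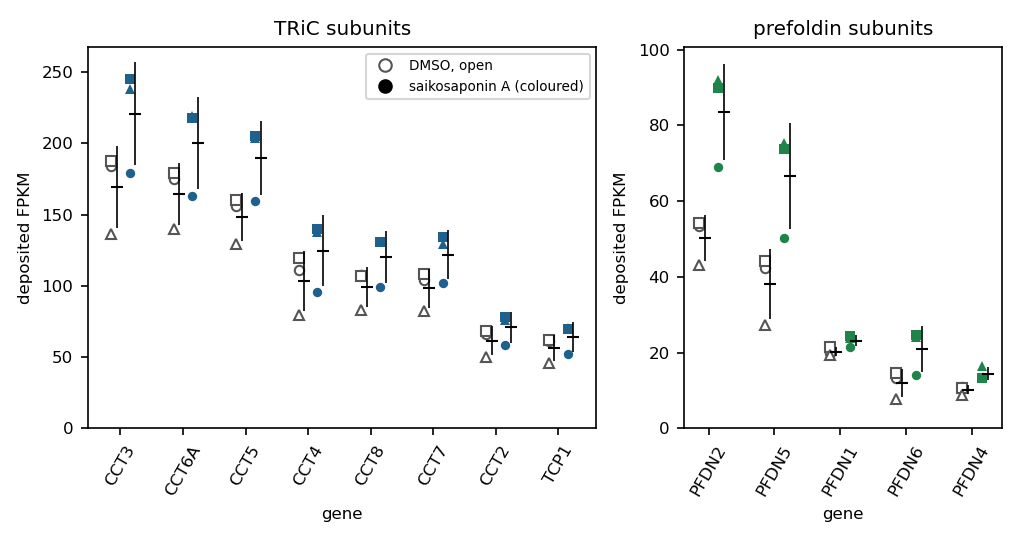
Deposited FPKM (vertical axis, per-length scale, from 0) of the TRiC subunits (left) and prefoldin subunits (right), with DMSO libraries as open and saikosaponin A libraries as filled symbols (circle, square and triangle for libraries 1, 2 and 3) and dashes with bars for the mean ± SD of 3 libraries. CCT3 has the highest and TCP1 the lowest mean of the TRiC genes in both groups (169 and 56.3 FPKM with DMSO), and saikosaponin A 1 lies within the DMSO range for all 8 of them.

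TRiC holds its subunits in equal number, and on the per-length FPKM scale their transcripts were not equal. The DMSO levels ran from 56.3 ± 9.03 FPKM for TCP1 and 61.6 ± 10.1 FPKM for CCT2 to 165 ± 21.6 FPKM for CCT6A and 169 ± 28.6 FPKM for CCT3 (SD, n = 3 each). CCT7, CCT8 and CCT4 lay between 98.4 and 104 FPKM, closer to each other than their SDs of 13.7 to 21.0 FPKM. CCT3 made up 18.3% to 19.0% of the summed TRiC FPKM in the DMSO libraries and 19.7% to 20.1% in the treated ones. TCP1 made up 6.14% to 6.33% and 5.70% to 5.82%. In both shares the groups did not overlap, and the coefficient of variation over the 8 subunits was 38.5% to 40.2% with DMSO and 42.1% to 42.6% with saikosaponin A.

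Prefoldin subunits rose by unequal amounts. PFDN5, an α-class subunit, stood at 150.4, 157 and 113 CPM with DMSO and at 227, 295 and 305 CPM with saikosaponin A, a log2 fold change of 0.98 (SE 0.16, adjusted p = 0.00235, edgeR). PFDN6 stood at 41.3, 45.6 and 28.0 CPM against 55.4, 85.9 and 85.3 CPM, also 0.98 but with a larger error (SE 0.23, adjusted p = 0.0106, edgeR). PFDN2 stood at 34.8, 35.4 and 32.7 CPM against 57.1, 65.9 and 68.2 CPM, a log2 fold change of 0.89 (SE 0.09, adjusted p = 0.000322, edgeR). In each of the 3 genes all treated libraries were above all DMSO libraries. PFDN4 stood at 20.1, 19.7 and 19.0 CPM against 31.6, 27.4 and 34.1 CPM (log2 fold change 0.66, adjusted p = 0.00157, edgeR). PFDN1 stood at 44.9, 48.7 and 50.8 CPM against 61.5, 62.0 and 61.1 CPM (log2 fold change 0.35, adjusted p = 0.00492, edgeR). The α subunit VBP1, also called PFDN3, which completes the hexamer but is not on the list, stood at 59.0, 58.3 and 54.3 CPM against 66.5, 75.1 and 76.4 CPM (log2 fold change 0.35, adjusted p = 0.0088, edgeR). On counts with no length correction PFDN1 and VBP1 were thus at 0.35 and the 4 others from 0.66 to 0.98. That division did not hold with the length offset, where PFDN1 was at -0.22, PFDN2 at -0.11, VBP1 at -0.08, PFDN4 at 0.15, PFDN6 at 0.63 and PFDN5 at 0.65, and PFDN5 alone passed the threshold. Per length, the DMSO levels ran from 10.2 ± 1.13 FPKM for PFDN4 to 50.3 ± 6.16 FPKM for PFDN2 (SD, n = 3 each), with a coefficient of variation over the 5 listed subunits of 65.7% to 68.7% with DMSO and 73.7% to 75.8% with saikosaponin A.

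Fold changes in these libraries fell with transcript length, and the role groups differ in length. Over 10002 protein-coding genes Spearman's rho between length and log2 fold change was -0.72, a description across genes, which are not independent replicates. In 10 bins of equal size, the median log2 fold change went from 0.64 in the shortest bin (median length 1205 nt) to -0.66 in the longest (median length 9334 nt). The median length was 1462 nt for prefoldin, 2344 nt for TRiC, 2546 nt for the inducible genes and 4727 nt for the constitutive genes. Of the 38 genes 34 were above the median of their own length bin: 16 of 18 inducible, 8 of 8 TRiC, 4 of 5 prefoldin, 5 of 5 constitutive and 1 of 2 heat shock factors. The median distance above the bin was 0.31 for the inducible genes, 0.11 for TRiC, 0.26 for prefoldin and 0.45 for the constitutive genes. AHSA1, BAG3, HSF2 and PFDN1 lay below their bin. The cause of the length trend was not tested.

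**Figure D3:**
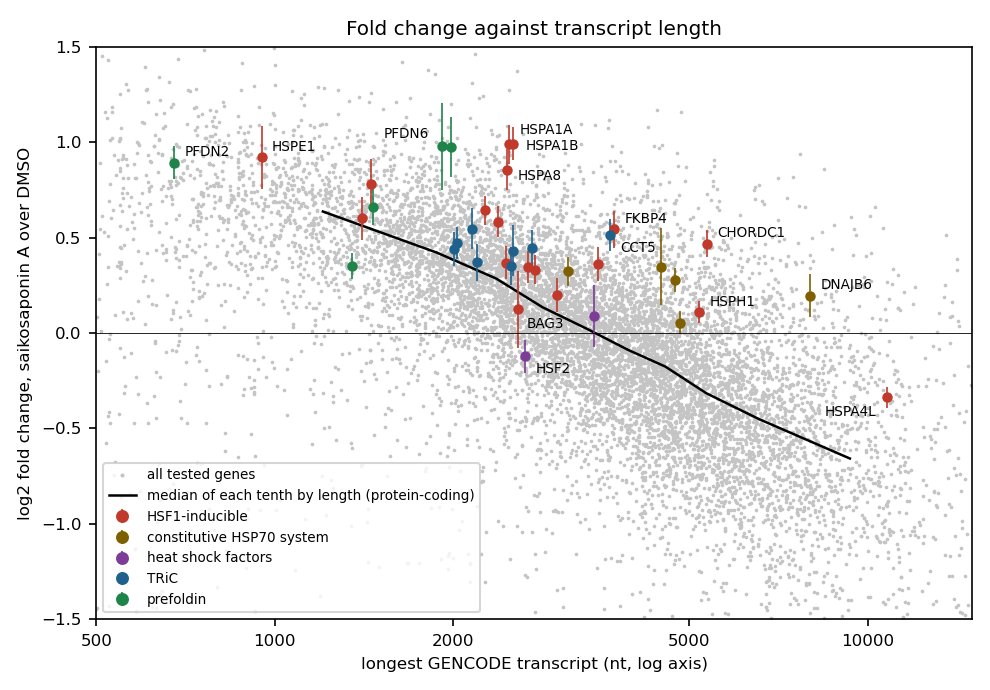
Log2 fold change of saikosaponin A over DMSO (vertical axis, bars ± SE from edgeR) against the longest GENCODE transcript in nt (horizontal log axis), with all tested genes in grey, the members coloured by role group and the black line joining the medians of the 10 length bins. HSPA1A, HSPA1B and HSPA8 at 2463 to 2521 nt sit above their bin's median by 0.57 to 0.71, the TRiC genes by 0.02 to 0.60, and HSPA4L lies below 0 but above the line.

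A fit with a per-library offset for transcript length left 17 of 38 members higher and none lower, with 15.3% of all genes higher. By group 10 of 18 inducible genes, 2 of 8 TRiC subunits (CCT5 and CCT6A), 1 of 5 prefoldin subunits (PFDN5), 4 of 5 constitutive genes and neither factor rose. The group medians were 0.38, 0.21, 0.15, 0.49 and -0.08 in that order, and -0.02 over all genes. HSPA1B was at 0.82 (adjusted p = 0.00137), HSPA1A at 0.80 (adjusted p = 0.00234), CHORDC1 at 0.76 (adjusted p = 0.000654), HSPA8 at 0.66 (adjusted p = 0.00548), FKBP4 at 0.61 (adjusted p = 0.00415) and DNAJB1 at 0.40 (adjusted p = 0.00484), all by edgeR. The short genes lost most. HSPE1 went from 0.92 to 0.13, AHSA1 from 0.60 to 0.06, HSPB1 from 0.78 to 0.26, PFDN2 from 0.89 to -0.11 and PFDN1 from 0.35 to -0.22, and none of the 5 passed the threshold. The long genes gained. HSPA4L went from -0.34 to 0.40 (adjusted p = 0.00417), HSPH1 from 0.11 to 0.39 (adjusted p = 0.00256), DNAJB6 from 0.20 to 0.74 (adjusted p = 0.00872) and HSPA4 from 0.05 to 0.28 (adjusted p = 0.0186), all by edgeR.

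The longest annotated transcript, used as the length in that fit, may differ from the expressed one. With the length that the deposited counts and FPKM imply instead, 25 of 38 members rose, where 18.7% of all genes did, among them 13 of 18 inducible genes, 7 of 8 TRiC subunits and 2 of 5 prefoldin subunits. TRiC thus had 2 or 7 of 8 subunits past the threshold depending on which length was taken. HSPA4L was at 0.13 (adjusted p = 0.111, edgeR) and HSPE1 at 0.41 (adjusted p = 0.0429, edgeR) in this fit. The implied length was above the longest annotated transcript in every member. It was 3397 against 1402 nt in AHSA1, 4458 against 2150 nt in CCT3 and 716.5 against 677 nt in PFDN2. The implied length is thus not that of an annotated transcript, and the length of the expressed transcripts was not measured.

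**Figure D4:**
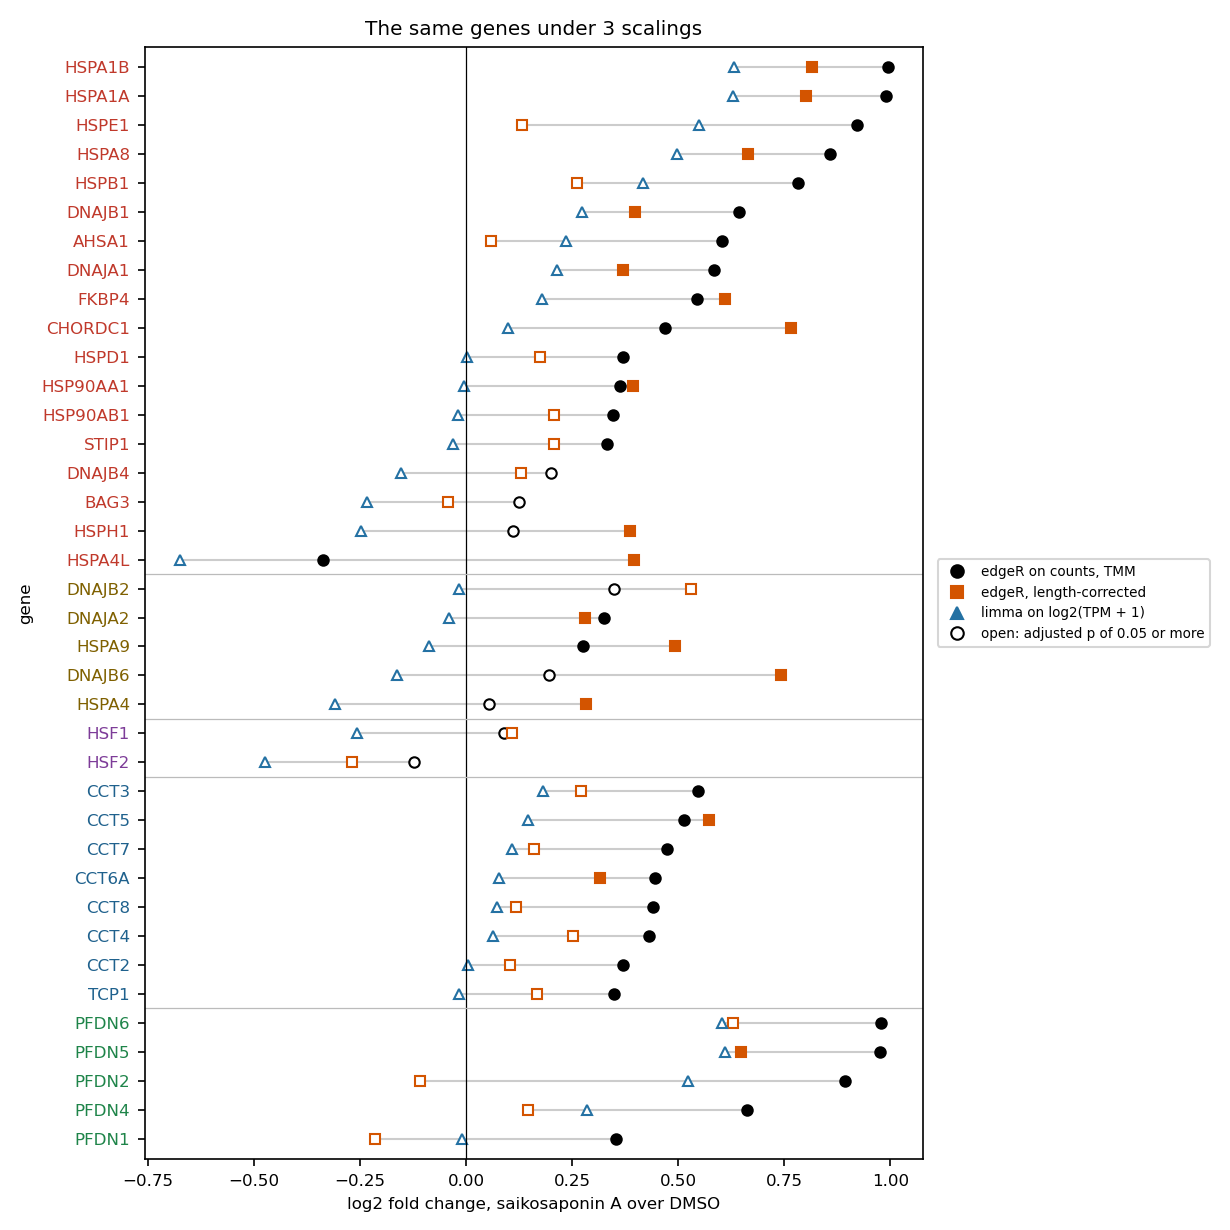
Log2 fold change of saikosaponin A over DMSO (horizontal axis) of each of the 38 genes under 3 scalings: edgeR on TMM-scaled counts (circles), edgeR with the transcript length offset (squares) and limma on log2(TPM + 1) (triangles), filled where the adjusted p is below 0.05. HSPA1A, HSPA1B, HSPA8, DNAJA1, DNAJB1, CHORDC1, FKBP4, CCT5, CCT6A and PFDN5 stay right of 0 under all 3 and are filled under both edgeR fits. No gene is filled with TPM, whose median over all genes is at -0.31.

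Levels scaled by total FPKM gave lower values throughout. With TPM computed from the deposited FPKM and tested by limma on log2(TPM + 1), 49 of all genes rose (0.429%) and 2446 fell (21.4%), against 2956 and 3190 with TMM-scaled counts, and the median over all genes was at -0.31. No member passed the threshold there, and the members' median was 0.07, which is above the median of all genes. With limma on log2(FPKM + 1), 914 genes rose (8%) and 3723 fell (32.6%), the median over all genes was -0.11, and 9 of 38 members rose: 6 of 18 inducible genes, 3 of 5 prefoldin subunits and no TRiC subunit. On deposited FPKM the libraries separated without overlap in 9 of 18 inducible genes on the higher side (CHORDC1, DNAJA1, DNAJB1, HSPA1A, HSPA1B, HSPA8, HSPB1, HSPE1 and STIP1), in 3 of 5 prefoldin subunits (PFDN2, PFDN4 and PFDN5) and in none of the TRiC subunits, where 12.6% of all genes did. HSPA4L and HSF2 separated on the lower side, as did 38.6% of all genes. HSPA1A, for example, stood at 75.5, 76.2 and 80.9 FPKM with DMSO and at 136, 136 and 141 FPKM with saikosaponin A. CCT3 stood at 184, 188 and 137 FPKM against 179, 245 and 238 FPKM. Over 22 fits, the one reported first included, HSPA1A, HSPA1B, HSPA8, DNAJB1 and PFDN5 were positive in all 22 and passed the threshold in 21, each except the TPM one. FKBP4, CHORDC1 and CCT5 passed in 19, and BAG3 in none.

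The wider chaperone network was read from lists of related genes chosen by function. Of 26 other HSF1 targets and regulators tested, 15 rose and 1 fell, with a median of 0.47. The shares over all tested genes were 25.9% and 27.9%. With the length offset 11 of the 26 rose and 0 fell, where 15.3% and 17.3% of all genes did. By the rule for names, the leading genes were DUSP1, a MAP kinase phosphatase induced by many stresses, and GLA, a lysosomal galactosidase, on the rising side. DUSP1 stood at 86.4, 97.6 and 101 CPM with DMSO and at 173, 191 and 162 CPM with saikosaponin A (log2 fold change 0.89, adjusted p = 0.000392, edgeR), and with the length offset at 0.57, still past the threshold. GLA was at 0.67 (adjusted p = 0.00037, edgeR), and with the offset at 0.14, no longer past it. FBXO30, the gene that fell, was at -0.54 (adjusted p = 0.0119, edgeR) and at 0.08 with the offset, not past the threshold.

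Of 29 other HSP70 and HSP90 co-chaperones 15 rose and 5 fell, with a median of 0.27. The shares over all tested genes were 25.9% and 27.9%. With the length offset 6 of the 29 rose and 2 fell, where 15.3% and 17.3% of all genes did. STUB1, the CHIP ubiquitin ligase of HSP70 clients, was at 0.62 (adjusted p = 0.00209, edgeR) and NUDC, an HSP90 partner, at 0.54 (adjusted p = 0.00118, edgeR). With the length offset neither passed the threshold, STUB1 being at 0.25 (adjusted p = 0.0602, edgeR) and NUDC at 0.15 (adjusted p = 0.0789, edgeR). The folliculin partners FNIP1 and FNIP2, which slow the HSP90 ATPase and so oppose AHSA1, fell. FNIP1 stood at 34.2, 35.3 and 40.1 CPM with DMSO and at 19.5, 20.2 and 19.3 CPM with saikosaponin A (log2 fold change -0.89, adjusted p = 0.000297, edgeR). FNIP2 stood at 12.7, 13.9 and 15.0 CPM against 7.82, 6.77 and 5.97 CPM (log2 fold change -1.02, adjusted p = 0.00128, edgeR). With the length offset FNIP1 was at -0.47 and FNIP2 at -0.56, both still past the threshold (adjusted p of 0.00417 and 0.0139, edgeR).

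Of 23 other HSP70, HSP40 and small heat shock protein genes 8 rose and 5 fell, with a median of 0.08. The shares over all tested genes were 25.9% and 27.9%. With the length offset 4 of the 23 rose and 2 fell, where 15.3% and 17.3% of all genes did. HSPB8, the small heat shock protein that works with BAG3, was at 0.36 (adjusted p = 0.00208, edgeR) and HSPB11, an intraflagellar transport protein despite its name, at 0.52 (adjusted p = 0.00185, edgeR). With the length offset HSPB11 was lower, at -0.30 (adjusted p = 0.00817, edgeR), and HSPB8 was at 0.09 (adjusted p = 0.317, edgeR). The membrane-anchored DNAJB14 and the synaptic vesicle J protein DNAJC5 fell, with -0.45 (adjusted p = 0.00283, edgeR) and -0.68 (adjusted p = 0.00339, edgeR). With the offset neither passed the threshold, DNAJB14 being at -0.04 (adjusted p = 0.731, edgeR) and DNAJC5 at -0.40 (adjusted p = 0.0631, edgeR).

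Of 15 tested partners of TRiC and prefoldin, 7 rose and 1 fell, with a median of 0.23. The shares over all tested genes were 25.9% and 27.9%. With the length offset 4 of the 15 rose and 3 fell, where 15.3% and 17.3% of all genes did. The tubulin cofactors work after TRiC to assemble the tubulin dimer. TBCB stood at 28.6, 28.3 and 24.0 CPM with DMSO and at 44.3, 52.4 and 54.6 CPM with saikosaponin A (log2 fold change 0.90, adjusted p = 0.000735, edgeR), and at 0.39 with the length offset (adjusted p = 0.0115, edgeR). ARL2, the small GTPase that works with the cofactors, stood at 61.4, 61.5 and 69.8 CPM against 117, 109 and 112 CPM (log2 fold change 0.81, adjusted p = 0.000265, edgeR), and at 0.18 with the offset, no longer past the threshold (adjusted p = 0.227, edgeR). TBCD, the long cofactor D, was at -0.27 (adjusted p = 0.0191, edgeR) and at 0.21 with the length offset (adjusted p = 0.0965, edgeR).

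Of 22 tested substrates of TRiC, 8 rose and 3 fell, with a median of 0.28. The shares over all tested genes were 25.9% and 27.9%. With the length offset 1 substrate rose and 2 fell, where 15.3% and 17.3% of all genes did. The obligate substrate ACTB stood at 3041, 3004 and 4169 CPM with DMSO and at 5357, 4097 and 4289 CPM with saikosaponin A, overlapping groups that did not pass the test (log2 fold change 0.43, SE 0.17, adjusted p = 0.0687, edgeR). DMSO 3 and saikosaponin A 1 were the highest ACTB libraries of their groups, the reverse of their place in TRiC. ACTG1 was at 0.41 (adjusted p = 0.00613, edgeR), TUBB6 at 0.41 (adjusted p = 0.0013, edgeR), TUBB at 0.25 (adjusted p = 0.0469, edgeR) and CDC20, a WD-repeat substrate, at 0.54 (adjusted p = 0.000474, edgeR). The substrates DCAF7 and VHL fell, by 0.62 (adjusted p = 0.000382, edgeR) and by 0.34 (adjusted p = 0.0124, edgeR) on the log2 scale. With the length offset DCAF7 was at -0.22 and VHL at -0.27, both still past the threshold, while CDC20 at 0.14, TUBB6 at 0.14, ACTG1 at 0.17 and TUBB at 0.16 were not.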

How the data were processed

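Polyadenylated RNA of 6 libraries was fragmented and made into dUTP-marked libraries, per the labels' protocols. The tools named in the submitters' processing notes were HISAT2 2.0.4, StringTie 1.3.4d and cutadapt 1.9, with the build GRCh38. The counting step, its strand setting and its annotation release are not given in these sources. Loss of long transcripts from broken RNA and the treatment of multiply mapped or overlapping reads can both alter such values. The deposited counts were whole numbers per gene and library and were not normalized, per the file headers and their unequal totals. The deposited FPKM values, divided by the authors by gene length and library size, per the file headers, served the expression minimum, levels and alternatives. TPM was computed here from that FPKM.

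Genes with at least 1 FPKM in at least 3 of 6 libraries were tested with edgeR 4.0.16 (quasi-likelihood, TMM, two-sided, no block, both groups, Benjamini-Hochberg over all tested genes, threshold 0.05) in R 4.3.3. CPM are TMM-scaled. Coordinates are those of the deposited table, and length is that of the longest GENCODE 29 transcript (99.6% of tested rows). Alternatives were DESeq2 1.42.0, limma 3.58.1 on FPKM and TPM, filters, length and GC offsets, the mitochondrial share, a replicate block and left-out libraries. The fit was tested on simulated data. With 3 libraries a group, precision is set by the spread between them.

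The members and all lists were chosen with earlier results of these data known. All 38 members are named, and of each related list the pair of smallest p among risers and among fallers, plus ACTB, ACTG1, TUBB and VBP1. Marker lists for hepatocytes, fibroblasts, endothelium, leukocytes and epithelium were fixed alike. RefSeq promoters (GRCh38.p14) matched 34 members. At most 30 bases are printed per site, in place of the whole promoters first planned, because many windows overlap annotated transcripts. Protein stretches that were planned are not used here.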

Additional observations from a re-analysis of the deposited data

How the results depend on the processing

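The counts that depended most on the processing were those of TRiC, prefoldin and the constitutive genes. With DESeq2's size factors, DESeq2's own test, or no FPKM minimum, 29, 29 and 29 of 38 members rose, as reported. Of all genes in these fits 25.9%, 29.2% and 9.95% rose, the last of 29435 genes. A mean of at least 5 FPKM left 1666 genes higher and 1762 lower, since fewer genes were tested. There 25 of 37 members rose, among them 6 of 8 TRiC subunits, where 26.9% of all genes did. With limma on log2(FPKM + 1), 914 genes, 9 members and 13 related genes rose, of them 6 inducible, 0 constitutive, 0 TRiC and 3 prefoldin genes. With log2(FPKM + 0.1) these were 886, 9, 12, 6, 0, 0 and 3. With TPM they were 49, 0, 0, 0, 0, 0 and 0, and 0 members and 8 related genes fell, while the members' median log2 fold change was 0.07.

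The offset for length left 1743 genes higher and 1973 lower, 17 members higher and 0 lower, 26 related genes higher and 9 lower, and 4 constitutive, 2 TRiC and 1 prefoldin genes higher. Length with GC content gave 1688 and 2036 genes, 18 members and 29 related genes higher, 2 TRiC and 2 prefoldin genes higher. Both alternatives that follow were chosen after seeing the data. A spline for length gave 1784 and 1689 genes, 17 members higher, 25 and 7 related genes, and 4 constitutive, 2 TRiC and 1 prefoldin genes higher, and the length implied by the deposited values gave 2 prefoldin genes higher. The cause was not tested.

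Leaving out 1 library at a time gave 2005 to 3153 genes higher and 2594 to 3249 lower, 24 to 31 members higher and 1 lower, 37 to 56 related genes higher and 12 to 16 lower, 12 to 15 inducible, 2 to 4 constitutive, 5 to 8 TRiC, 5 prefoldin and 0 heat shock factor genes higher. Where an arm had 2 libraries the spread was pooled over both arms. The constitutive count was 4 without saikosaponin A 1, and the TRiC count was 5 without saikosaponin A 2 and 5 without saikosaponin A 3. Without both libraries of high mitochondrial share 2 members fell (HSPA4L and HSF2), where 34.5% of all genes did. In that fit 4 constitutive genes and 1 heat shock factor rose, where 33.3% of all genes did. With the mitochondrial share as a covariate 4 constitutive genes and 36.2% of all genes rose.

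The correlations of same-numbered deviations were -0.336, 0.287 and -0.351, while saikosaponin A 1 correlated best with DMSO 3, at 0.55. The latter are the libraries of high mitochondrial share, and each deviation is from a mean of 3 libraries. These values therefore cannot show whether same-numbered libraries shared a culture or day. A replicate block gave 2074 genes higher and 2542 lower, with 24 members higher, of them 12 inducible, 6 TRiC, 5 prefoldin and 1 constitutive. The members past the threshold without the block and not with it were HSP90AA1, HSP90AB1, HSPA9, TCP1 and CCT4 (adjusted p from 0.0582 to 0.0722, edgeR). Length correction with the block gave 918 genes higher and 1117 lower, 12 members higher and 0 lower, 18 and 3 related genes, and 8 inducible, 1 TRiC and 1 prefoldin genes higher.

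Over all alternatives 49 of the members' log2 fold changes changed sign, 572 stayed on their side of the threshold, 149 no longer passed it and 27 newly passed it. These signs changed, with their log2 fold changes. With the length offset they were HSPA4L 0.40, BAG3 -0.041, PFDN1 -0.215, PFDN2 -0.11, HSPB11 -0.30, FBXO30 0.077, TBCD 0.21 and VBP1 -0.085. With length and block they were HSPA4L 0.40, BAG3 -0.035, PFDN1 -0.21, PFDN2 -0.11, HSPB11 -0.30, FBXO30 0.078, TBCD 0.21 and VBP1 -0.086. With length and GC they were HSPA4L 0.35, PFDN1 -0.24, PFDN2 -0.13, HSPB11 -0.32, TBCD 0.26 and VBP1 -0.19. With the spline they were HSPA4L 0.42, BAG3 -0.066, PFDN1 -0.20, HSPB11 -0.18, DNAJB14 0.001, FBXO30 0.11, TBCD 0.25 and VBP1 -0.10. With the implied length they were HSPA4L 0.13, BAG3 -0.17, PFDN1 -0.068, PFDN2 -0.19, DNAJB14 0.079, TBCD 0.28 and VBP1 -0.13.

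With a mean of 5 FPKM they were HSPH1 -0.0054, HSPA4 -0.062 and HSF1 -0.027. With log2(FPKM + 1) they were HSPH1 -0.048, BAG3 -0.032, HSPA4 -0.11 and HSF1 -0.058, and with log2(FPKM + 0.1) -0.051, -0.033, -0.11 and -0.062 in that order. With TPM they were HSPH1 -0.25, HSP90AA1 -0.0036, HSP90AB1 -0.018, DNAJB4 -0.15, BAG3 -0.23, STIP1 -0.031, HSPA4 -0.31, HSPA9 -0.087, DNAJA2 -0.040, DNAJB2 -0.016, DNAJB6 -0.16, HSF1 -0.26, TCP1 -0.017, PFDN1 -0.0090, HSPB8 -0.0001, TUBB -0.11 and VBP1 -0.021. With the mitochondrial share as covariate they were BAG3 -0.0035 and HSF1 -0.0022. With 1 library left out, BAG3 ran from -0.066 (without saikosaponin A 1) to 0.32 and was at -0.0055 without DMSO 2, and HSF1 ran from -0.032 (without saikosaponin A 1) to 0.26 and was at -0.0084 without DMSO 1. None of the cited signs of BAG3, HSF1, HSPA4 or HSPH1 belongs to a value that passed the threshold. The lowest value of any member in any library was 14.4 CPM, that of DNAJB2 in DMSO 3. DMSO 3 and saikosaponin A 1, the libraries of high mitochondrial share, also had the lowest totals, at 57768359 and 58955482 counts. The part of depth in these values was not tested.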

Other observations

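Some stress-inducible relatives lay under the expression minimum and were in no test. HSPA6, an HSP70 gene that is nearly silent without stress, had 0, 8 and 0 counts in DMSO 1, 2 and 3 and 12, 10 and 16 counts in saikosaponin A 1, 2 and 3. It was picked after its values were seen, and its mean level was 0.0404 FPKM. Every treated library held more HSPA6 counts than any DMSO library, but these are few unscaled counts and the nearest were 8 and 10. In CPM, 30.4% of all tested genes separated on the higher side. How reads that map to more than 1 gene were counted is not given, so reads of other HSP70 genes may be among them. CRYAB, the αB-crystallin gene and a small heat shock protein, also picked after its values were seen, had 176, 227 and 158 counts with DMSO and 199, 226 and 192 with saikosaponin A.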
